A study of Homo sapiens with 6 samples.

Results

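RAB GTPases are small GTP-binding proteins that give each membrane compartment of a cell its identity and steer vesicles between compartments. The genes described here are the 48 rows of the deposited expression table, of 11456 gene symbols in all, whose symbol is RAB followed by a number and at most a letter and a digit. Their transcripts were measured by RNA sequencing in HepG2-hCAR, 1 clonal line derived from HepG2, a line of human liver cancer cells. Every cell of the line, in both groups, carries the cDNA of human CAR (constitutive androstane receptor, gene NR1I3), a nuclear receptor of drug metabolism, in a lentiviral vector that doxycycline switches on. The vehicle group and the group treated with doxycycline, an antibiotic, at 1 µg/ml had 3 libraries each, and both were taken at 72 h. The comparison asks which transcripts differ once CAR is induced, but no cells lacking the vector were given doxycycline, so what CAR does and what the drug does on its own cannot be told apart.

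A RAB cycles between a GTP-bound state on a membrane, where it recruits effectors such as tethers, motors and sorting adaptors, and a GDP-bound state that is held in the cytosol by a GDP dissociation inhibitor (GDI). Exchange factors load GTP and GTPase-activating proteins speed its hydrolysis, while a prenyl group added by RAB geranylgeranyl transferase anchors the protein. In hepatocytes these routes carry secreted plasma proteins outward, recycle and degrade surface receptors, and move proteins across the cell to the bile canaliculus.

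Levels are given in FPKM, which corrects fragment counts for transcript length as well as for library size, so levels of different genes can be compared. NR1I3 was at 3.15, 3.01 and 3.57 FPKM with vehicle and at 331, 317 and 316 FPKM with doxycycline. All 9 of 9 listed hepatocyte and HepG2 markers were in the table. In the limma test described below, 7 of them fell at an adjusted p below 0.05, against 13.6% of all genes tested. HNF4A (7.97 to 5.30 FPKM) and SERPINA1 (187 to 122 FPKM) had lower means with doxycycline but did not pass. APOB went from 819 to 444 FPKM. The hepatic markers ALB (1.87 to 0.373 FPKM), AFP (6.01 to 0.320 FPKM), TTR (3.90 to 2.09 FPKM) and FGB (5.04 to 2.395 FPKM) were all called lower. They were far under APOB in both groups. No marker of 4 for endothelium was in the table, while 2 of 4 stellate cell and fibroblast markers (ACTA2 at 18.6 and 16.4 FPKM, PDGFRB at 0.856 and 1.43 FPKM) and 2 of 4 leukocyte markers (CD68 at 8.50 and 5.08 FPKM, CD14 at 0.0578 and 1.92 FPKM) were. The defining markers PTPRC, CD3E, COL1A1 and COL1A2 were not among the genes of the expression table, and the part of these differences in the RAB values was not tested. The FPKM of the libraries summed to 204300 to 209400. Nothing in the labels tells whether replicates were grown separately, so p-values reflect no more than the spread among these libraries, which may be technical. In bulk libraries like these, fewer cells with a transcript and less of it per cell cannot be told apart.

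Start-site sequence is shown for 3 members that the results turn on: RAB3B, which had the largest increase, RAB7A, the most abundant member, and RAB4A, which had the larger decrease of the 2 members called lower. Each line gives the 250 bases before the annotated start, 5′ to 3′ on the strand of the gene, from RefSeq on GRCh38.p14. The windows are chr1:51990701-51990950 on the minus strand for RAB3B, chr3:128725933-128726182 on the plus strand for RAB7A and chr1:229270861-229271110 on the plus strand for RAB4A. Capitals mark every match, on either strand, to AGGTCA (a nuclear receptor element), AGTTCA (a variant of that element), CACGTG (the E-box), CCAAT (the element bound by NF-Y), TATAAA (the TATA box) or GGGCGG (the GC box).
RAB3B: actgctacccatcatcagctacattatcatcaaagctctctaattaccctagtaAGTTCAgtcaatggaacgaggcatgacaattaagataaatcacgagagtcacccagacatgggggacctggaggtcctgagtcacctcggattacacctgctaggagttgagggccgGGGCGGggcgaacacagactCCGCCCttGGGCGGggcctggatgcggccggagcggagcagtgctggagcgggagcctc
RAB7A: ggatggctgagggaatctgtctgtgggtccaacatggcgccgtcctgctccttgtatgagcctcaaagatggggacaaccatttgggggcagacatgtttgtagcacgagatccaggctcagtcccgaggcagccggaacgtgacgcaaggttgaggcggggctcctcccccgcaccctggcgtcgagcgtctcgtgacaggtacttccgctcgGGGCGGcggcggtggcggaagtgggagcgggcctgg
RAB4A: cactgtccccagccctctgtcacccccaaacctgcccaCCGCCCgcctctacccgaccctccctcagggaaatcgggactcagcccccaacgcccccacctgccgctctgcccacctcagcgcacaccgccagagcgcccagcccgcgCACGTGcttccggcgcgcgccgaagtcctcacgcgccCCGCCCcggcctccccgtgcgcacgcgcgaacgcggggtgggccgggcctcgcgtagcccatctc

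RAB3B held AGTTCA at position -196 from the start and GGGCGG at -79, -59 and -51. The RAB7A window held GGGCGG at -36 and no other searched motif. RAB4A held the E-box CACGTG at -102 and GGGCGG at -212 and -65. RefSeq start windows were matched for 39 of the 48 members, 57 windows in all because some genes have several starts. GGGCGG was in 77.2% of the members' windows, against 65.0% of the 11947 windows of genes tested. AGGTCA was in 5.26% against 8.85%, AGTTCA in 3.51% against 6.10%, CACGTG in 8.77% against 8.61%, CCAAT in 29.8% against 33.5%, and TATAAA in 3.51% against 5.46%. The median GC content was 64.8% in both sets. A match describes letters only, and windows of the same gene can overlap.

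Differences were tested with limma on log2(FPKM + 1) over the whole table, with Benjamini-Hochberg adjustment, for the 44 members with a mean of at least 1 FPKM. Of these 44, 12 were called at an adjusted p below 0.05, which is 27.3%, against 28.8% of all genes tested. By direction, 10 rose (22.7%, against 15.2% of all genes tested) and 2 fell (4.55%, against 13.6%). The members that rose were RAB3B, RAB27A, RAB7A, RAB17, RAB23, RAB15, RAB10, RAB18, RAB5A and RAB14, and those that fell were RAB4A and RAB42. The median log2 difference was 0.11 over the 44 members and 0.01 over all genes tested, and 29 members had a positive difference. No overlap between vehicle and doxycycline libraries was seen in 21 members (47.7%), against 47.1% of all genes tested. Of the 44 members, 16 lay upward and 5 downward, where 2600 (24.8%) and 2336 (22.3%) of the 10469 genes tested did. Upward members were thus a larger share than in the table and downward members a smaller one. The share of RAB genes called, both directions together, was thus near that of the table in this fit. The called differences other than that of RAB3B lay between -0.36 and 0.44.

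**Figure D1:**
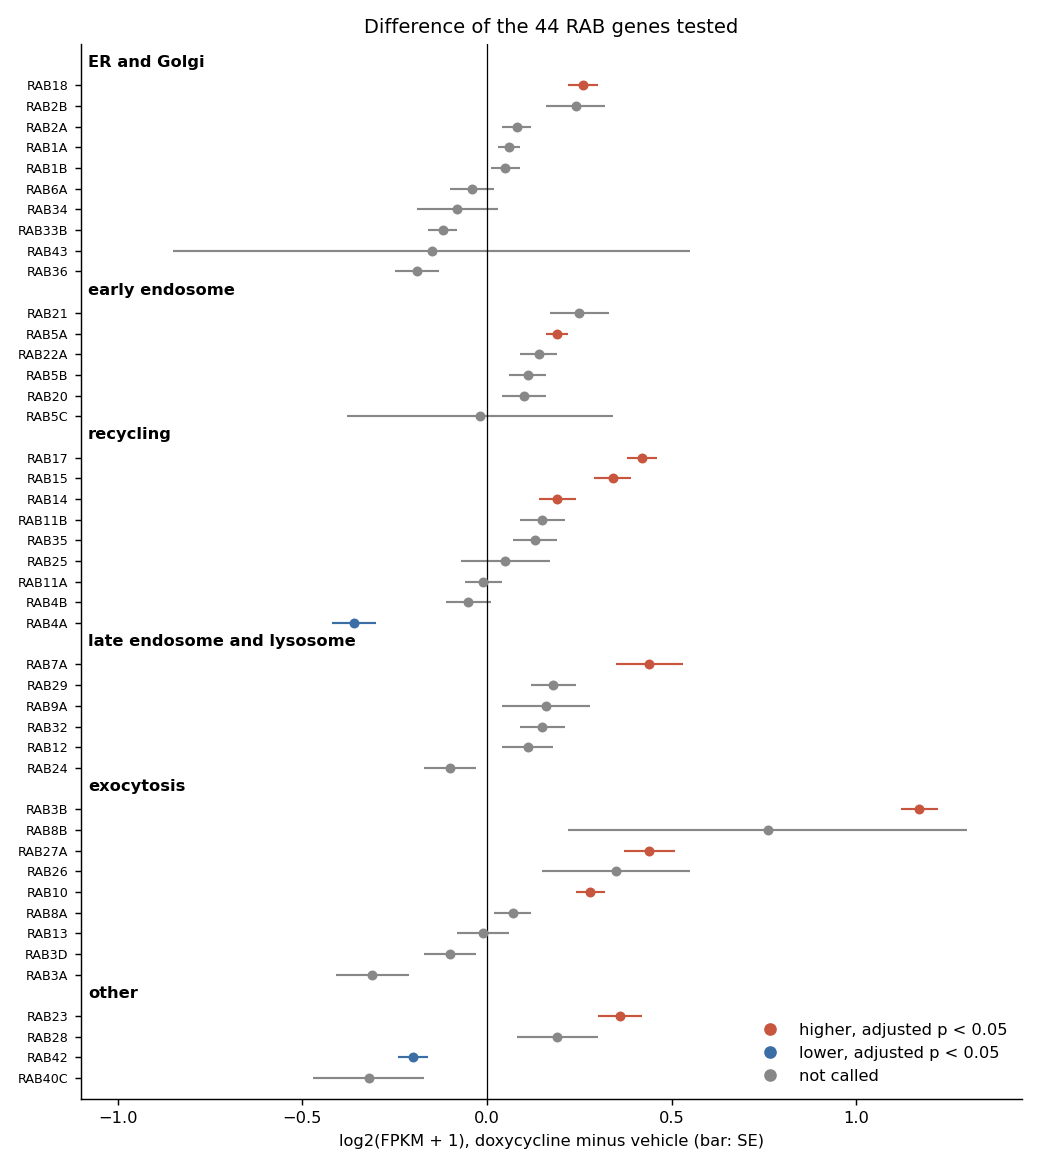
Difference of log2(FPKM + 1), doxycycline minus vehicle (horizontal axis), for the 44 RAB genes tested, grouped by trafficking step. Points are differences and bars their standard errors. RAB3B stands at 1.17, the other called genes lie between -0.36 and 0.44, and the wide bars belong to RAB8B, RAB43 and RAB5C.

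Among all members the most abundant transcripts were RAB7A, RAB1A, RAB10 and RAB1B, which together made up 36.1% of the summed RAB FPKM with vehicle and 38.2% with doxycycline. The summed FPKM of the 48 members was 573, 571 and 600 with vehicle and 642, 630 and 655 with doxycycline, 1.11-fold higher, without overlap of the groups. Of the 61.2 FPKM by which the means differed, RAB7A made up 33.3% and RAB10 made up 17.9%. With vehicle the ranges of RAB7A and RAB1A overlapped, at 51.9 to 66.7 and 53.8 to 56.1 FPKM. With doxycycline the order was RAB7A (75.1 to 79.7 FPKM), RAB10 (61.1 to 62.9), RAB1A (56.4 to 58.4) and RAB1B (46.9 to 49.6), with no overlap between neighbours.

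**Figure D2:**
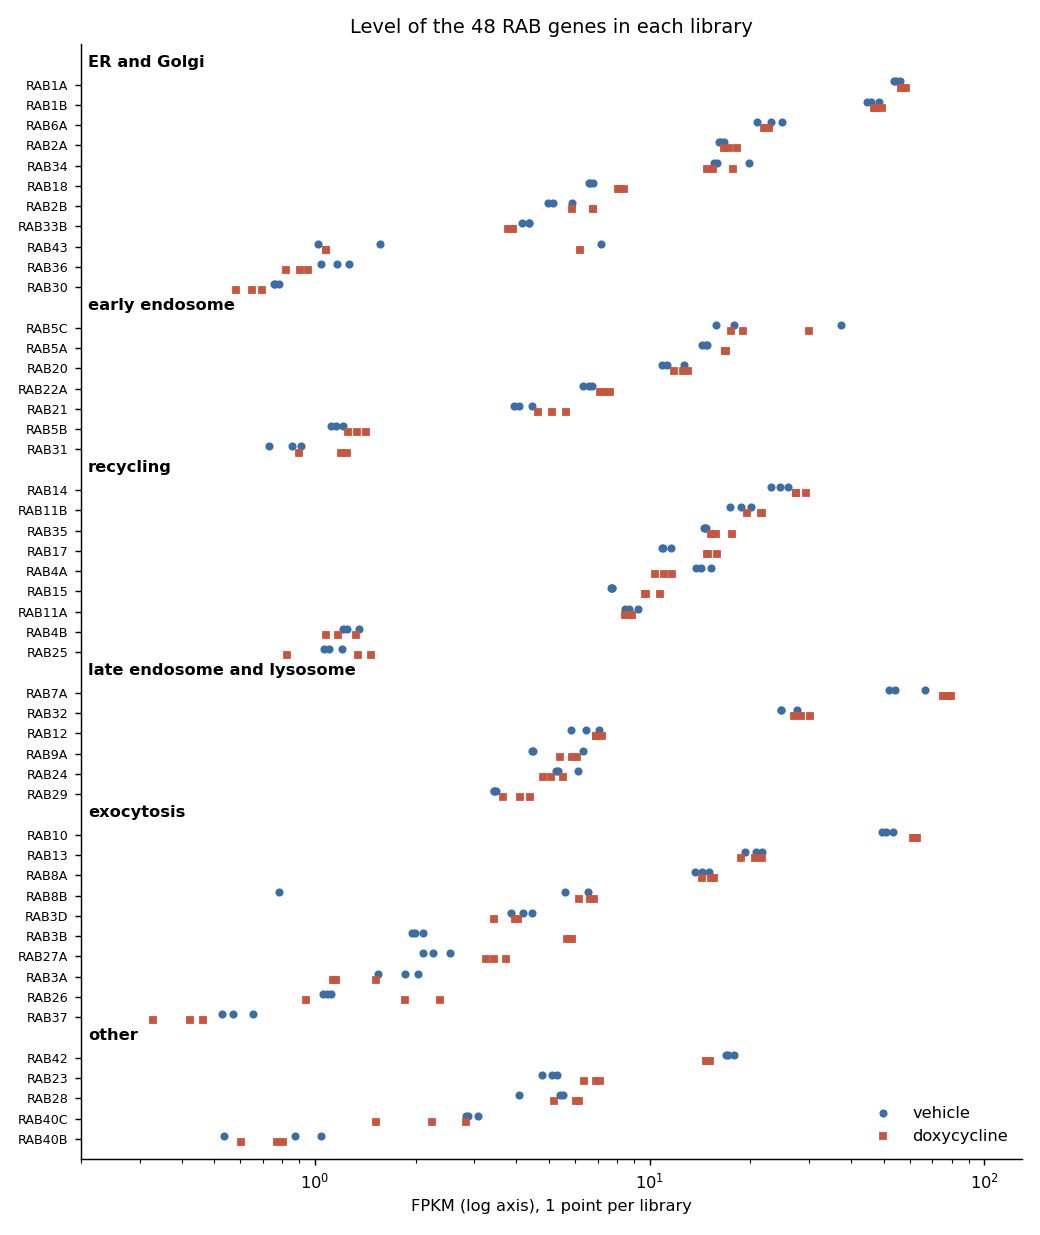
FPKM of each of the 48 RAB genes (log axis, 1 point per library, circles for vehicle and squares for doxycycline), grouped by trafficking step and ordered by mean level. RAB7A, RAB1A, RAB10 and RAB1B lie near 50 FPKM or above, and 4 genes lie under 1 FPKM on average.

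The exocytic RABs carry secretory vesicles to the plasma membrane. Of the 9 tested, 3 rose (33.3%, against 15.2% of all genes tested) and none fell (against 13.6%). Each step holds few genes, and its share was not tested. The median log2 difference was 0.28, and 0.10 without vehicle replicate 2, the library in which RAB8B was low. RAB3B, a RAB of regulated secretion (chromosome 1 of GRCh37, 52373628 to 52456436), was at 2.11, 1.95 and 1.99 FPKM with vehicle and at 5.86, 5.66 and 5.80 FPKM with doxycycline. Every doxycycline library was far above every vehicle library, and the means differed 2.86-fold (log2 difference 1.17, SE 0.05, limma adjusted p = 2.73e-05). The related RAB3A was at 1.55, 2.03 and 1.85 FPKM with vehicle and at 1.53, 1.13 and 1.16 FPKM with doxycycline. RAB3A thus lay lower with doxycycline without overlap, but it was not called (log2 difference -0.31, adjusted p = 0.0616), except when doxycycline replicate 1 was left out (adjusted p = 0.0387). RAB3D was at 4.16 ± 0.305 and 3.82 ± 0.337 FPKM (mean ± SD, n = 3 libraries per group, vehicle first, as below) and was not called. TMEM205, listed on the same strand as RAB3D with 3495 shared bases, was at 10.9 to 11.8 FPKM with vehicle and 7.97 to 9.61 FPKM with doxycycline. Its part in the RAB3D values was not tested. RAB3B made up 23.9% to 28.1% of the summed RAB3A, RAB3B and RAB3D FPKM in the vehicle libraries and 52.2% to 54.2% in the doxycycline libraries.

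RAB27A, which docks secretory granules and multivesicular bodies at the plasma membrane (chromosome 15, 55495164 to 55611311), was at 2.26, 2.54 and 2.11 FPKM with vehicle and at 3.43, 3.25 and 3.73 FPKM with doxycycline. It rose 1.51-fold without overlap (log2 difference 0.44, adjusted p = 0.00621). PIGBOS1, listed on the same strand with 1930 shared bases, was at 6.06 to 7.82 FPKM with vehicle and 6.70 to 6.98 FPKM with doxycycline, and its part in the RAB27A values was not tested. RAB10, which drives basolateral and glucose transporter exocytosis, was at 51.0, 49.4 and 53.3 FPKM with vehicle and at 61.1, 62.6 and 62.9 FPKM with doxycycline. The increase was 1.21-fold (log2 difference 0.28, adjusted p = 0.00243). The tight junction RAB13 was at 20.8, 19.3 and 21.6 FPKM with vehicle and at 20.7, 18.8 and 21.6 FPKM with doxycycline. RAB8A, which acts from the Golgi to the plasma membrane and the cilium, was at 14.4, 13.7 and 15.01 against 14.3, 15.6 and 15.2 FPKM. Neither RAB13 nor RAB8A was called, and the groups overlapped in both. RAB37, a secretory granule RAB under the filter, was at 0.584 ± 0.0629 and 0.405 ± 0.0683 FPKM and was not tested.

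**Figure D3:**
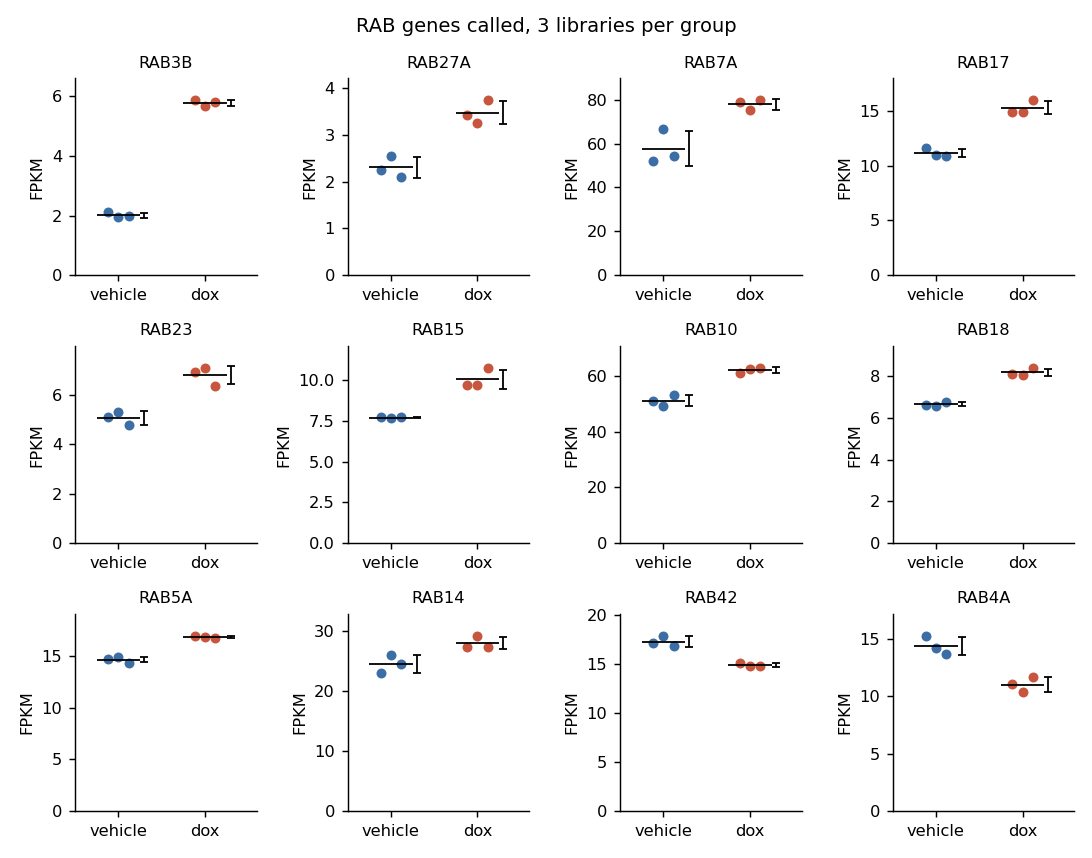
FPKM (vertical axis, from 0) of the 12 called RAB genes in the 3 vehicle and 3 doxycycline libraries, with the mean as a line and the SD as a bar beside it. The groups do not overlap in any panel, and RAB3B shows the largest separation, at 2.02 against 5.77 FPKM.

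The recycling RABs return receptors and transporters from endosomes to the surface. Of 9 tested, 3 rose (33.3%, against 15.2% of all genes tested) and 1 fell (11.1%, against 13.6%). The median log2 difference was 0.13, and 0.08 without doxycycline replicate 3. RAB17, an epithelial RAB of recycling and transcytosis (chromosome 2, 238482965 to 238510257), was at 11.6, 10.9 and 10.9 FPKM with vehicle and at 14.9, 14.9 and 15.9 FPKM with doxycycline. It rose 1.37-fold (log2 difference 0.42, SE 0.04, adjusted p = 0.00112). RAB15, which acts at the recycling endosome, was at 7.74, 7.66 and 7.73 FPKM with vehicle and at 9.71, 9.75 and 10.8 FPKM with doxycycline, an increase of 1.31-fold (adjusted p = 0.00373). CHURC1-FNTB, on the opposite strand of RAB15, was at 2.32 to 4.56 FPKM with vehicle and 1.29 to 4.10 FPKM with doxycycline. For RAB17 and RAB15 the lowest doxycycline library was well above the highest vehicle library. RAB4A, the RAB of rapid recycling (chromosome 1, 229406809 to 229441641), was at 15.3, 14.2 and 13.7 FPKM with vehicle and at 11.1, 10.4 and 11.7 FPKM with doxycycline. It was 1.31-fold lower without overlap (log2 difference -0.36, SE 0.06, adjusted p = 0.00635). Its paralog RAB4B was at 1.27 ± 0.0712 and 1.19 ± 0.128 FPKM and was not called. RAB4B overlaps the read-through RAB4B-EGLN2, at 0 to 0.173 FPKM with vehicle and 0 to 1.47 FPKM with doxycycline. RAB4A made up 88.6% to 92.6% of the summed RAB4A and RAB4B FPKM in every library.

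RAB14, which moves cargo between endosomes and the Golgi, was at 23.1, 26.0 and 24.6 FPKM with vehicle and at 27.5, 29.2 and 27.5 FPKM with doxycycline. It rose 1.14-fold (adjusted p = 0.0417), the weakest call among the members, which ended in 7 of 17 alternatives (adjusted p 0.0317 to 0.112). These were quantile normalization (0.0543), no variance trend (0.0548), and leaving out vehicle replicate 1 (0.0914) or 3 (0.0990) or doxycycline replicate 1 (0.0782), 2 (0.112) or 3 (0.0790). GSN, which overlaps RAB14 on the opposite strand, was at 10.5 to 11.2 FPKM with vehicle and 13.7 to 16.0 FPKM with doxycycline, and its part in the RAB14 values was not tested. RAB11B, of the slow recycling route, was at 17.4, 18.7 and 20.0 FPKM with vehicle and at 21.7, 19.6 and 21.6 FPKM with doxycycline. RAB35, of fast recycling, was at 14.6, 14.5 and 14.8 FPKM with vehicle and at 15.2, 15.8 and 17.6 FPKM with doxycycline. Neither passed the test (adjusted p = 0.125 for RAB11B and 0.131 for RAB35), although RAB35 had no overlap between the groups. RAB11A was at 8.78 ± 0.421 and 8.70 ± 0.216 FPKM and the epithelial RAB25 at 1.12 ± 0.0709 and 1.22 ± 0.343 FPKM, without a call.

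The late endosomal and lysosomal RABs bring cargo to lysosomes or back to the Golgi. Of 6 tested, 1 rose (16.7%, against 15.2% of all genes tested) and none fell (against 13.6%), with a median log2 difference of 0.16. RAB7A, the organizer of fusion between late endosomes and lysosomes (chromosome 3, 128444965 to 128533639), was at 51.9, 66.7 and 54.1 FPKM with vehicle and at 79.0, 75.1 and 79.7 FPKM with doxycycline. It rose 1.35-fold without overlap (log2 difference 0.44, SE 0.09, adjusted p = 0.0177), and vehicle replicate 2 lay closest to the doxycycline libraries. The RAB7A call was lost on leaving out vehicle replicate 3 (adjusted p = 0.0580) or 1 of the doxycycline replicates 1 (0.0559) and 3 (0.0576), and over all alternatives its adjusted p was 0.00133 to 0.0580. RAB32, of lysosome-related organelles and mitochondria, was at 27.7, 24.7 and 24.7 FPKM with vehicle and at 27.1, 28.4 and 30.2 FPKM with doxycycline. RAB12, which acts from recycling endosomes to lysosomes, was at 5.83, 7.06 and 6.44 against 6.91, 7.20 and 6.91 FPKM. The groups overlapped for RAB32 and RAB12, and neither was called. RAB9A, of transport from late endosomes to the trans-Golgi network, was at 5.09 ± 1.06 and 5.77 ± 0.344 FPKM and was called only without vehicle replicate 3 (adjusted p = 0.0275). RAB29 was at 3.45 ± 0.0263 and 4.05 ± 0.373 FPKM, and RAB24, which overlaps MXD3 on the same strand, at 5.57 ± 0.487 and 5.13 ± 0.363 FPKM. Of these RAB29 was called only without doxycycline replicate 2 (adjusted p = 0.0368).

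The early endosomal RABs receive cargo from the plasma membrane. Of 6 tested, 1 rose (16.7%, against 15.2% of all genes tested) and none fell (against 13.6%), with a median log2 difference of 0.13. RAB5A, which drives the fusion of early endosomes (chromosome 3, 19988571 to 20026667), was at 14.7, 14.9 and 14.4 FPKM with vehicle and at 17.0, 16.9 and 16.8 FPKM with doxycycline. Both groups were tight, and the 1.15-fold increase passed the test (log2 difference 0.19, SE 0.03, adjusted p = 0.00627). The summed RAB5A, RAB5B and RAB5C FPKM was 39.5 ± 11.6 and 40.4 ± 6.89, with overlap of the groups. RAB5A made up 27.2% to 46.8% of that sum with vehicle and 35.1% to 47.0% with doxycycline. RAB20, an endosome and phagosome RAB, was at 11.3, 10.9 and 12.6 FPKM with vehicle and at 12.6, 11.8 and 13.0 FPKM with doxycycline, and was not called. RAB21, of integrin endocytosis, was at 4.16 ± 0.278 and 5.13 ± 0.484 FPKM. It was just outside the threshold (adjusted p = 0.0542) and was called without doxycycline replicate 2 (adjusted p = 0.0396). RAB22A was at 6.55 ± 0.205 and 7.32 ± 0.266 FPKM (adjusted p = 0.0675) and RAB5B at 1.17 ± 0.0506 and 1.34 ± 0.0847 FPKM, each without overlap of the groups and without a call. RAB31 was at 0.833 ± 0.0906 and 1.12 ± 0.191 FPKM, under the filter.

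The RABs of the endoplasmic reticulum (ER) and the Golgi include the abundant RAB1A and RAB1B. Of 10 tested, 1 rose (10%, against 15.2% of all genes tested) and none fell (against 13.6%). The median log2 difference was 0.01, with 5 members on each side of 0. That median was -0.03 without vehicle replicate 2 and 0.08 without vehicle replicate 1. RAB18, of ER contacts and lipid droplets (chromosome 10, 27793103 to 27831166), was at 6.63, 6.60 and 6.77 FPKM with vehicle and at 8.14, 8.05 and 8.40 FPKM with doxycycline. It rose 1.23-fold without overlap (log2 difference 0.26, SE 0.04, adjusted p = 0.00412). RAB1A, which tethers vesicles between the ER and the Golgi, was at 53.8, 54.3 and 56.1 FPKM with vehicle and at 56.4, 57.1 and 58.4 FPKM with doxycycline, a step of 1.05-fold that did not pass the test (adjusted p = 0.152). Its paralog RAB1B was at 48.6, 46.0 and 44.8 FPKM with vehicle and at 47.6, 46.9 and 49.6 FPKM with doxycycline. RAB6A, of retrograde transport at the Golgi, was at 24.9, 21.0 and 23.0 FPKM with vehicle and at 21.9, 22.5 and 22.7 FPKM with doxycycline. The groups overlapped in RAB1B and RAB6A, and neither was called.

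The other Golgi members without a call were RAB2A, at 16.4 ± 0.304 and 17.4 ± 0.758 FPKM, RAB34, at 17.1 ± 2.38 and 16.0 ± 1.57 FPKM, and RAB2B, at 5.33 ± 0.481 and 6.47 ± 0.532 FPKM. RAB2B passed the test on leaving out vehicle replicate 3 (adjusted p = 0.0490) or doxycycline 2 (adjusted p = 0.0491). RAB33B, which also serves autophagosome formation, was at 4.29 ± 0.123 and 3.86 ± 0.0722 FPKM, and RAB36 at 1.16 ± 0.112 and 0.895 ± 0.0675 FPKM. These 2 lay lower without overlap, and RAB36 was called with quantile normalization (adjusted p = 0.0464) and without a variance trend (adjusted p = 0.0485). RAB30 was at 0.768 ± 0.0151 and 0.643 ± 0.0585 FPKM and was not tested.

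Of the 4 tested members outside these steps, 1 rose (25%, against 15.2% of all genes tested) and 1 fell (25%, against 13.6%). RAB23, a negative regulator of Hedgehog signalling that acts at the cilium (chromosome 6, 57051790 to 57087112), was at 5.10, 5.31 and 4.77 FPKM with vehicle and at 6.94, 7.09 and 6.38 FPKM with doxycycline. It rose 1.34-fold (log2 difference 0.36, SE 0.06, adjusted p = 0.00578). BAG2, on the opposite strand of RAB23, was at 11.98 to 12.8 FPKM with vehicle and 14.3 to 15.5 FPKM with doxycycline, and its part in the RAB23 values was not tested. RAB42 (chromosome 1, 28918712 to 28921955) was at 17.1, 17.9 and 16.9 FPKM with vehicle and at 15.1, 14.8 and 14.8 FPKM with doxycycline, 1.16-fold lower (log2 difference -0.20, adjusted p = 0.00819). RAB42 lies within TAF12 on the opposite strand, which was at 6.92 to 9.10 FPKM with vehicle and 5.67 to 7.32 FPKM with doxycycline. The library kit marks strand, but whether the strand was used in counting is not given in the sources used here. RAB28, a ciliary RAB, was at 4.08, 5.40 and 5.50 FPKM with vehicle and at 5.19, 6.17 and 6.04 FPKM with doxycycline, with overlap and no call. RAB40B, a substrate adaptor of a ubiquitin ligase, was at 0.817 ± 0.260 and 0.726 ± 0.108 FPKM and was not tested.

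In 7 members the highest library of a group exceeded the lowest by over 1.5 times, and for several of them single libraries set the group mean. RAB8B, an exocytic paralog of RAB8A, was at 5.60, 0.781 and 6.55 FPKM with vehicle and at 6.16, 6.84 and 6.66 FPKM with doxycycline. Vehicle replicate 2 stood apart, and without it the log2 difference went from 0.76 to 0.10, neither of them called (adjusted p = 0.347 and 0.452). RAB43, a Golgi RAB, was at 7.15, 1.56 and 1.02 FPKM with vehicle and at 1.08, 1.08 and 6.18 FPKM with doxycycline, so 1 library of each group was high. The read-through ISY1-RAB43, which shares 35227 bases with it on the same strand, was at 2.72, 2.70 and 4.31 FPKM with vehicle and at 3.86, 3.20 and 3.72 FPKM with doxycycline. RAB43 with ISY1-RAB43 summed to 4.26 to 9.87 FPKM with vehicle and 4.29 to 9.91 FPKM with doxycycline, and how fragments were divided between them was not tested. RAB5C, the third early endosome RAB5, was at 17.8, 15.7 and 37.4 FPKM with vehicle and at 30.0, 19.0 and 17.5 FPKM with doxycycline, with a high library in each group. AC099811.2, listed on the same strand as RAB5C, stayed under 1 FPKM in every library.

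RAB26, a secretory granule RAB, was at 1.06, 1.12 and 1.09 FPKM with vehicle and at 1.86, 0.942 and 2.37 FPKM with doxycycline. Doxycycline replicate 2 lay under the vehicle libraries and the other doxycycline replicates above them. RAB26 was called without it (log2 difference 0.57, adjusted p = 0.0108) but not with it (0.35, adjusted p = 0.241). RAB40C was at 2.82, 2.87 and 3.08 FPKM with vehicle and at 2.82, 1.52 and 2.23 FPKM with doxycycline, without a call. RAB25 and RAB40B, given above, complete the 7.

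**Figure D4:**
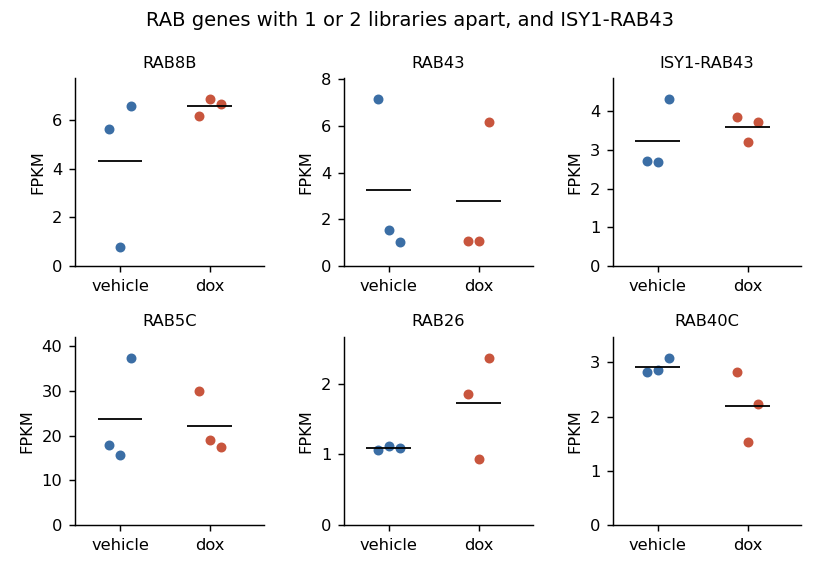
FPKM (vertical axis, from 0) in each vehicle and doxycycline library of RAB8B, RAB43, ISY1-RAB43, RAB5C, RAB26 and RAB40C, with the group mean as a line. RAB8B has 1 vehicle library at 0.781 FPKM, and RAB43 and RAB5C each have 1 high library per group.

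The genes that run the RAB cycle were described from lists of exchange factors, TRAPP subunits, GTPase-activating proteins, GDI and prenylation genes, and effectors. Of 28 tested exchange factors, 8 rose and 5 fell (46.4% called, median log2 difference 0.10), and of 14 subunits of the TRAPP complexes, which activate RAB1 and RAB11, 3 rose and none fell (21.4%, median 0.07). Of 35 tested GTPase-activating proteins, 4 rose and 1 fell (14.3%, median 0.02), and of 8 GDI, prenylation and membrane delivery genes 1 rose and 1 fell (25%, median 0.02). Of 43 tested effectors, 12 rose and 6 fell (41.9%, median 0.10). The table as a whole had 28.8% called.

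RIN2, an exchange factor of RAB5, was at 3.92, 4.08 and 4.18 FPKM with vehicle and at 6.67, 6.49 and 6.66 FPKM with doxycycline, an increase of 1.63-fold (adjusted p = 2.69e-04). ANKRD27, which activates RAB21 and binds RAB32 and RAB38, rose from 8.56 ± 0.253 to 10.7 ± 0.519 FPKM (adjusted p = 0.00691). RABIF, which binds several exocytic RABs, rose 1.36-fold to 6.82 ± 0.959 FPKM, a call that ended without any 1 vehicle replicate and without doxycycline replicate 1 or 3 (adjusted p 0.0693 to 0.0895). DENND1A, an exchange factor of RAB35, fell from 4.53 ± 0.228 to 3.38 ± 0.281 FPKM (adjusted p = 0.0119). Among TRAPP subunits, TRAPPC13 rose from 1.88 ± 0.110 to 2.52 ± 0.0844 FPKM (adjusted p = 0.00890). TRAPPC12, at 3.16 ± 0.199 and 4.19 ± 0.381 FPKM, lost its call without vehicle replicate 2 (adjusted p = 0.0649) or 3 (0.0676) or doxycycline replicate 1 (0.0580) or 2 (0.0626). TRAPPC6B, at 5.10 ± 0.441 and 6.35 ± 0.428 FPKM, lost its call without vehicle replicate 1 (adjusted p = 0.0932) or 2 (0.0913) or doxycycline replicate 2 (0.106) or 3 (0.110).

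GRTP1, a GTPase-activating protein of the TBC family, was at 11.8, 12.5 and 12.04 FPKM with vehicle and at 8.18, 8.17 and 8.17 FPKM with doxycycline, a fall with no overlap (log2 difference -0.52, adjusted p = 2.70e-04). RAB3GAP1, the catalytic subunit of a complex that acts on RAB3, rose 1.15-fold, from 14.5 ± 0.216 to 16.6 ± 0.314 FPKM (adjusted p = 0.00783). TBC1D16 was at 7.71, 10.5 and 7.31 FPKM with vehicle and at 16.2, 10.8 and 15.4 FPKM with doxycycline. The TBC1D16 call (adjusted p = 0.0416) was lost with replicate number added as a block (0.115), with robust moderation (0.05) and without vehicle replicate 1 (0.116) or 3 (0.115) or doxycycline replicate 1 (0.114) or 3 (0.116). TBC1D8 rose 1.13-fold to 22.0 ± 0.743 FPKM (adjusted p = 0.0203), a call lost with replicate number added as a block (0.0651) and without vehicle replicate 1 (0.0613) or 3 (0.0624) or doxycycline replicate 1 (0.0566).

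ARL6IP5, which belongs to the family of prenylated RAB acceptors, was at 14.99, 14.8 and 12.5 FPKM with vehicle and at 21.8, 22.4 and 25.5 FPKM with doxycycline. It rose 1.65-fold (log2 difference 0.68, adjusted p = 0.00243). GDI2, a GDI that keeps RABs in the cytosol, was at 117, 124 and 120 FPKM with vehicle and at 112, 113 and 111 FPKM with doxycycline. Its 1.07-fold decrease (adjusted p = 0.0377) lost the call in 8 of 17 alternatives, among them quantile normalization (0.12) and the replicate number as a block (0.0648). The RAB escort genes CHM, at 5.10 ± 0.0826 and 5.73 ± 0.190 FPKM, and CHML, at 6.96 ± 0.169 and 6.44 ± 0.329 FPKM, were not called, though CHM was without a variance trend (adjusted p = 0.0421). The transferase subunits RABGGTA, at 2.57 ± 0.204 and 2.39 ± 0.158 FPKM, and RABGGTB, at 15.9 ± 0.137 and 16.5 ± 0.478 FPKM, and the acceptor RABAC1, at 7.31 ± 0.621 and 7.22 ± 0.785 FPKM, were not called either.

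Among the effectors SYTL2, a synaptotagmin-like protein that binds RAB27 on secretory vesicles, was at 2.06, 1.92 and 2.17 FPKM with vehicle and at 4.39, 4.74 and 4.90 FPKM with doxycycline. It rose 2.28-fold (log2 difference 0.89, adjusted p = 1.82e-04). UNC13D, another RAB27 effector, rose from 8.32 ± 0.321 to 11.5 ± 0.172 FPKM (adjusted p = 8.05e-04). The RAB27 effector SYTL1, at 1.19 ± 0.0265 and 1.30 ± 0.0786 FPKM, was not called. The listed effector RPH3AL, at 1.93 ± 0.255 and 2.045 ± 0.05655 FPKM, was not called either (adjusted p = 0.596). MICALL1, an effector of RAB8 and RAB35 in recycling, rose from 5.49 ± 0.757 to 8.77 ± 0.179 FPKM (adjusted p = 0.00464). RABEPK, a RAB9 effector, fell from 15.9 ± 0.0927 to 10.7 ± 0.694 FPKM (adjusted p = 7.01e-04). The RAB11 family-interacting proteins moved both ways. RAB11FIP4 fell from 3.19 ± 0.293 to 1.98 ± 0.0309 FPKM (adjusted p = 0.00270) and RAB11FIP3 from 13.7 ± 0.287 to 11.4 ± 0.179 FPKM (adjusted p = 0.00393). RAB11FIP1 rose from 7.27 ± 0.294 to 10.0 ± 0.158 FPKM (adjusted p = 0.00103) and RAB11FIP5 from 4.77 ± 0.522 to 7.03 ± 0.0683 FPKM (adjusted p = 0.00468), and RAB11FIP2, at 9.21 ± 0.588 and 10.4 ± 1.56 FPKM, was not called. UNC13D, SYTL1, RPH3AL and the RAB11 family-interacting proteins other than RAB11FIP4 were chosen after their values were seen.

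**Figure D5:**
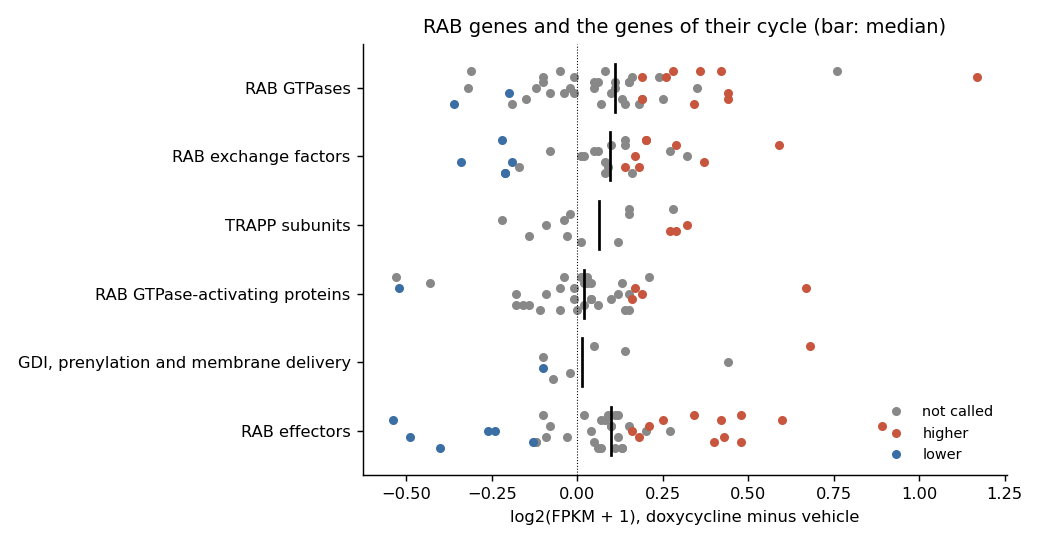
Difference of log2(FPKM + 1), doxycycline minus vehicle (horizontal axis), of each tested gene in the RAB family and in 5 lists of genes that act on RABs; the vertical bars are medians. The medians lie between 0.02 and 0.11, and the largest single differences are RAB3B at 1.17 and SYTL2 at 0.89.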

How the data were processed

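The deposited values are FPKM, as the authors computed them for each of the 6 libraries. The submitters' processing notes name FastQC, cutadapt, HISAT2, StringTie and GRCh37, without versions. The annotation release and the use of strand are not given in the sources used here. The table holds FPKM and no counts, so depth is unknown and no counting interval is given. Its smallest larger group mean is 0.500 FPKM, so weaker RAB genes were not analysed here.

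The entry with the highest mean represented each symbol. Of 11456 genes, 10469 with a mean of at least 1 FPKM were tested on log2(FPKM + 1) by limma (version 3.58.1, R 4.3.3), with group as the only term and a variance trend, two-sided, with Benjamini-Hochberg adjustment. "Fold" is a ratio of mean FPKM. Log2 differences are smaller than the log2 of that ratio for weakly expressed genes.

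Every called RAB member is named. Values in every library are given for the called members with an absolute log2 difference of at least 0.3 and for the 3 highest of each step, and for further members where libraries differ. From each list up to 4 called genes with the largest difference are named. The members, steps and lists were chosen with earlier results of these data known. Same-numbered libraries did not deviate together (correlations 0.0150, -0.0321 and 0.0917), so no pairing was used. The procedure was also run on simulated data with normally distributed noise and far fewer changed genes than were called here. That run held no outlying libraries, so it cannot show how the procedure treats them. Figures were drawn with matplotlib 3.10.9.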

Additional observations from a re-analysis of the deposited data

How the results depend on the processing

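Over 17 alternative fits, which tested 30 to 48 members, the number of RAB members called was 10 to 15, against 12 of 44. Of these, 8 to 13 were higher and 2 to 3 lower. Of the 6469 to 11456 genes tested, 2203 to 3267 were called, against 3012 of 10469. With the minimum of 5 FPKM it was 10 of 30 members and 2203 of 6469 genes. The highest member count, 15 of 44, came without doxycycline replicate 2, where 2312 of 10467 genes were called, a smaller share. In every fit that left out 1 library the members' share was the larger. It was closest without doxycycline replicate 3, at 10 of 44 members and 2309 of 10455 genes. With no filter on low values it was 12 of 48 members and 3267 of 11456 genes, a larger share of the genes. The alternatives used a pseudocount of 0.1 or 0.5, no filter or a minimum of 5 FPKM, median-ratio scaling, quantile normalization, no variance trend and robust moderation. Others used the replicate block, summed entries, no overlapping genes, and leaving out each library. RAB27A and RAB3B were not tested with the minimum of 5 FPKM, and RAB27A was not tested without overlapping genes. Of the 12 called members, 10 kept their call wherever they were tested, and RAB14 and RAB7A did not. No called member changed sign. With the replicate block 12 of 44 members were called, all 12 the same genes. There 2343 of 10469 genes of the table were called, against 3012, a smaller share than of the members. At an adjusted p below 0.01, 10 of 44 members and 1636 of 10469 genes of the table were called, a larger share of the members. Signs changed when single libraries were left out, none of them called, for RAB11A (-0.04 to 0.02), RAB13 (-0.06 to 0.04), RAB25 (-0.04 to 0.18), RAB34 (-0.16 to 0.02), RAB43 (-0.74 to 0.47), RAB5C (-0.25 to 0.35), RAB6A (-0.10 to 0.02) and RABAC1 (-0.09 to 0.04), where the values are log2 differences. The causes were not tested.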
